A study of Mus musculus with 18 samples.

Results

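Mif and Fam162a are 2 of the 54279 rows in each of the deposited gene tables, and they were taken by name. They were chosen by their counts in untreated cells, with earlier results on these data known: in untreated cells they were the genes whose rise with a Vhl edit passed the test across all genes (2 of 13569 tested genes, 0.0147%), and they rose about equally in all 3 untreated Vhl libraries. Their values in untreated cells are therefore a description, given with no test. Both genes were tested in both tables.

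Mif encodes macrophage migration inhibitory factor, a small secreted cytokine that also has tautomerase activity. It signals through a receptor complex of CD74 and CD44 and through the chemokine receptors CXCR2, CXCR4 and ACKR3. Fam162a encodes a mitochondrial membrane protein linked to cell death in low oxygen. Both are known targets of hypoxia-inducible factor (HIF), whose alpha subunits are hydroxylated by oxygen-dependent enzymes and then marked for degradation by the VHL protein. Loss of VHL leaves HIF active in normal oxygen.

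The cells were mouse oligodendrocyte progenitor cells (OPCs), the precursors of myelin-forming cells, derived from epiblast stem cells and grown with Fgf2 and Pdgfa. In the first experiment, cells with a CRISPR control and cells with a CRISPR edit of Vhl were left untreated. In the second experiment, both kinds of cell were kept for 14 hours in DMSO, the solvent, or in 300 nM of AZD8330, which blocks the MEK kinases upstream of ERK. Each of the 6 groups had 3 libraries, lettered A to C, for 18 in all. No group was made in low oxygen, and the sources used here do not say whether a group is a clone or a pool, or whether its libraries came from separate cultures, so p-values reflect the spread among the libraries alone, which may be technical.

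Untreated libraries held 14594148 to 21160250 estimated counts, and those of the drug experiment 12391077 to 16349676. Levels are given as CPM, each count relative to the scaled library total, with mean ± SD over n = 3 libraries. Vhl mRNA itself was checked first: by edgeR's quasi-likelihood test its log2 change with the edit was −0.53 ± 0.16 (SE) in untreated cells (adjusted p = 0.357), −0.20 ± 0.05 in DMSO (adjusted p = 0.00777) and −0.46 ± 0.05 in AZD8330 (adjusted p = 1.01e-05). All 7 OPC markers averaged at least 1 CPM in every group, while 7 microglia markers summed to 0.319 to 2.54 CPM. Among the OPC markers, Sox10, a transcription factor, was higher in both untreated A libraries than in B and C. It was at 526.9 CPM in control A, where B and C had 88.1 and 87.8. In Vhl A it was at 327.1 CPM, where B and C had 15.3 and 16.0. Other OPC markers did not share this pattern. Cspg4 was high in control A (963.4 CPM, against 323.5 and 338.4). It was not high in Vhl A (449.5 CPM, against 461.1 and 486.1). Olig1 was at 2732 to 2962 CPM in untreated control and 3125 to 3299 CPM in untreated Vhl libraries. The summed level of 5 astrocyte markers differed between groups. It was 254.5 to 278.3 CPM in control DMSO and 158.6 to 172.7 in Vhl DMSO. In AZD8330 it was 1092 to 1160 CPM in control and 557.2 to 598.0 in Vhl libraries. In untreated cells it was 496.3 to 570.2 CPM in control and 207.9 to 265.7 in Vhl libraries. Most of this sum was Gja1, at 229.3 CPM in control DMSO and 133.05 in Vhl DMSO. With the edit in DMSO, 2 of the 5 were called lower and 0 higher, and 2 had a positive log2 change. All tested genes were called higher in 13.8% and lower in 18.5% of cases there. Neuron markers summed to more in Vhl than in control libraries of the drug experiment, with 361.1 to 371.1 against 165.9 to 174.2 CPM in DMSO and 564.7 to 589.9 against 376.2 to 386.2 CPM in AZD8330, and overlapped in untreated cells, at 344.3 to 560.2 CPM in Vhl and 449.3 to 465.9 CPM in control libraries. Most of the neuron sum was Dcx, at 113.0 CPM in control DMSO and 269.6 in Vhl DMSO. Of the 5 neuron markers, 2 were called higher and 0 lower with the edit in DMSO. In AZD8330, 3 were called higher and 1 lower, where 16% of all tested genes were called higher and 14% lower. The part of the astrocyte and neuron markers in the values of Mif and Fam162a was not tested. In bulk RNA, fewer cells of a type and less RNA per cell cannot be told apart.

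Mif (ENSMUSG00000033307.7) lies on the minus strand of chr10:75859353-75860240 (GRCm38, the build also called mm10, with GENCODE M21). Fam162a (ENSMUSG00000003955.8) lies on the minus strand of chr16:36043761-36071594. HIF binds DNA at a short core, ACGTG or GCGTG. The following stretches at the 2 starts come from RefSeq's promoters of GRCm38.p6. All are written 5′ to 3′ on the minus strand, from which both genes are read. The Mif site and the Fam162a gap are shown because they hold these cores. The Mif promoter, which holds neither core, is shown beside them. In the Mif site and the Fam162a gap, capitals mark CACGT or CACGC, which are the cores read on the opposite strand. In the Mif promoter, capitals mark TGACGTCA, the cAMP response element, a motif added after the sequence had been seen.
Mif promoter, chr10:75860278-75860527: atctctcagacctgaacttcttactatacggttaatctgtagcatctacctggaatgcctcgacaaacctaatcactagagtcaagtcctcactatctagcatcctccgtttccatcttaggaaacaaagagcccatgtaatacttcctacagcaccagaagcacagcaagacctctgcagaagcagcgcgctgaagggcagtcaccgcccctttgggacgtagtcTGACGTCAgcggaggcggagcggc
Mif site, chr10:75860232-75860261: tactgagctgggtCACGTagctcaggtccc
Fam162a gap, chr16:36071595-36071659: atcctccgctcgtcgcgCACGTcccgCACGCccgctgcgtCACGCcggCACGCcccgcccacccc

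The 250 bases before the RefSeq start of Mif held no ACGTG or GCGTG on either strand. The 1 core found for Mif lies 30 bases after the RefSeq start and 8 bases before the GENCODE start. Fam162a had 1 ACGTG and 5 GCGTG in its window of 250 bases before to 50 after the RefSeq start. Of these 6 cores, 4 sit in the stretch shown, between the GENCODE start of Fam162a and the RefSeq start of the oppositely directed gene Ccdc58. Either core was present in 43.8% of 32851 mouse promoters of that length, in 62.4% of the promoters of genes tested in both tables, and in 77% of 74 promoters of the hypoxia response and glycolysis genes described below. TGACGTCA was present in 1.79% of all promoters, in 3.13% of those of genes tested in both tables, and in 2.7% of those of the listed genes. A match is a description of letters only.

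In untreated control cells Mif was at 56.6, 54.3 and 53.4 CPM in libraries A, B and C (54.7 ± 1.65). In untreated Vhl cells it was at 330.6, 351.3 and 419.6 CPM (367.2 ± 46.6). All 3 Vhl libraries lay far above the 3 controls, and the lowest of them was A. The mean was 6.71-fold higher, a log2 change of 2.75 ± 0.18 (SE), which ranked 137 among 13569 tested genes.

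Fam162a was at 15.8, 17.4 and 17.5 CPM in untreated control libraries A, B and C (16.9 ± 0.925). In untreated Vhl cells it was at 104.6, 114.6 and 92.3 CPM (103.8 ± 11.2). Here too the groups did not overlap, and Vhl A lay between B and C. The mean was 6.14-fold higher, a log2 change of 2.62 ± 0.17 (SE), rank 153. Groups that did not overlap, with Vhl higher, were seen for 7.92% of all tested genes, and the median log2 change of all genes was 0.05.

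**Figure D1:**
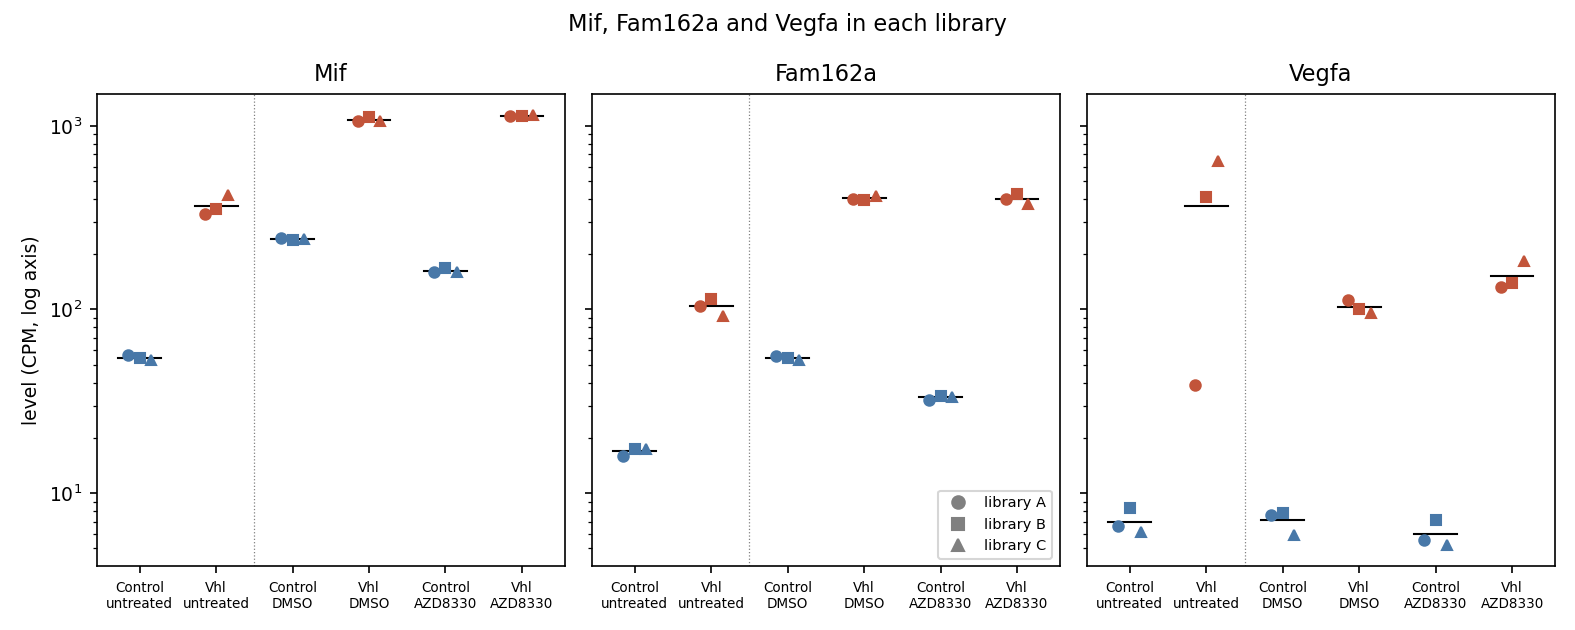
Level of Mif, Fam162a and, for comparison, Vegfa in each of the 18 libraries, in CPM on a log axis (control groups in blue, Vhl groups in red, the horizontal line is the mean of 3 libraries, the dotted line separates the 2 tables). In untreated Vhl library A, Mif (330.6 CPM) and Fam162a (104.6 CPM) sit close to libraries B and C, whereas Vegfa (38.8 CPM) sits far below its values of 408.4 and 644.0 CPM.

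Many genes that responded in untreated Vhl B and C responded less in Vhl A, so each library is given for both genes. Libraries are named as the deposited columns name them. Against the control mean, Mif was 6.04-fold higher in Vhl A, 6.42-fold in B and 7.67-fold in C. Fam162a was 6.19-fold, 6.78-fold and 5.46-fold higher. Vegfa, the gene of a vascular growth factor and a known HIF target, was 5.59-fold higher in A but 58.8-fold and 92.7-fold higher in B and C. The response of Vhl A, as a share of the mean log2 response of B and C, was 100.9% for Fam162a and 92.3% for Mif. Among the 39 genes of the hypoxia response and glycolysis lists, both members included, whose B and C response reached a log2 change of 1, these shares ranked 1 and 3.

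Between them stood Higd1a, a mitochondrial gene known to be induced by hypoxia, at 98.7%. Below followed Ankrd37 (79.5%) and Tpi1, which encodes triosephosphate isomerase (73.2%). The mitophagy receptor gene Bnip3 was at 65.2%, the glucose transporter gene Slc2a1 at 36.4%, Egln1, which encodes the HIF hydroxylase PHD2, at 34.6%, and Ldha, which encodes a lactate dehydrogenase subunit, at 34.1%. The 3 lowest were Narf (−3.82%), Lox (−29.0%) and Hk1 (−60.2%), which were below the control mean in Vhl A. The median was 37.6% over the 37 list genes without Mif and Fam162a, and 20.6% over all 1042 other tested genes with a response of that size. Of those 1042 genes, 91 had a share at or above that of Fam162a and 114 at or above that of Mif, so the pair is not alone in it.

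**Figure D2:**
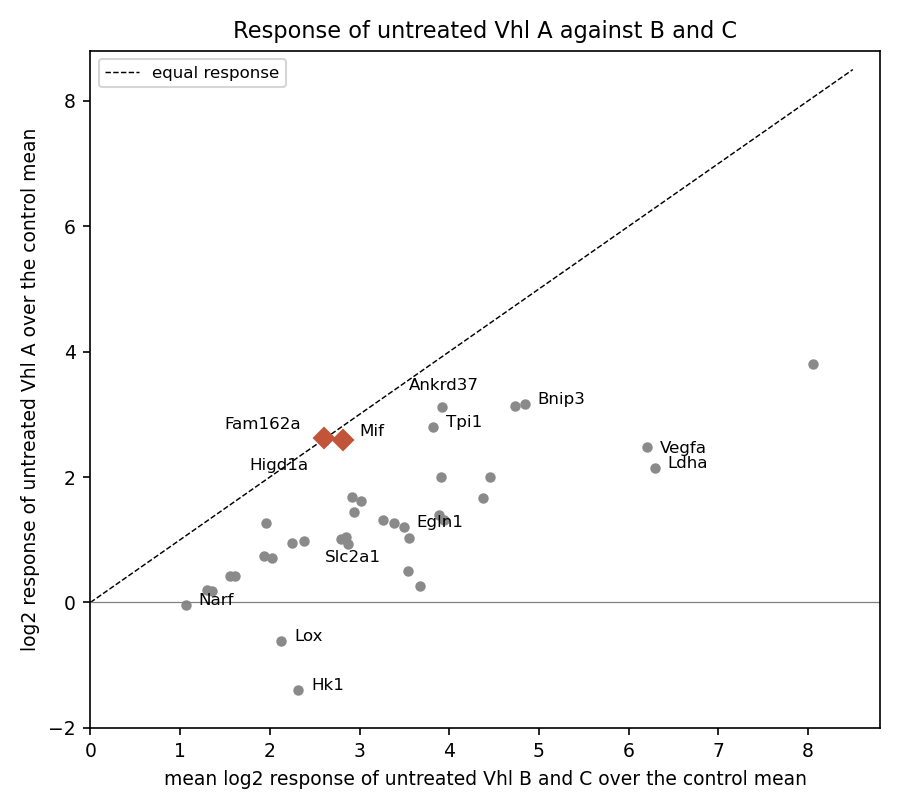
Each point is a gene of the hypoxia response and glycolysis lists (39 genes), with the mean log2 response of untreated Vhl B and C over the control mean on the horizontal axis and that of Vhl A on the vertical axis; the dashed line marks equal responses. Fam162a and Mif (red diamonds) lie on or near the line, at 100.9% and 92.3% of the B and C response, with the point of Higd1a beneath the Fam162a diamond.

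Like the shares above, the spread within the untreated Vhl group comes from the values by which the pair was chosen. Both are therefore a description and no further support for steadiness. The coefficient of variation over the 3 untreated Vhl libraries was 10.7% for Fam162a and 12.7% for Mif, ranks 3 and 4 of 52 list genes with both included. The other 50 genes had a median of 53.7% and ranged from 3.88% to 124.9%. In Vhl cells given DMSO, the median over these genes was 7.14%. Without Vhl A the log2 change was 2.81 for Mif and 2.61 for Fam162a, and without both A libraries it was 2.84 and 2.56.

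In DMSO, a comparison other than the one the pair was chosen by, Mif was at 244.5, 238.4 and 242.5 CPM in control libraries A, B and C (241.8 ± 3.12). In Vhl cells it was at 1060, 1116 and 1055 CPM (1077 ± 33.8). Every Vhl library was above every control, as for 19.5% of tested genes. Mif rose 4.46-fold, a log2 change of 2.16 ± 0.03 (SE; adjusted p = 1.36e-13 in the quasi-likelihood test of edgeR, the source of each adjusted p-value unless another tool is named).

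Fam162a was at 55.9, 54.3 and 53.1 CPM in control DMSO libraries (54.4 ± 1.42) and at 400.6, 395.7 and 414.9 CPM in Vhl DMSO libraries (403.7 ± 9.97). Again the groups did not overlap. It rose 7.41-fold, a log2 change of 2.89 ± 0.05 (SE; adjusted p = 2.75e-13, edgeR). Both genes thus passed, against 13.8% of 13460 tested genes called higher and a median log2 change of −0.03 over all genes. By size of the change Fam162a ranked 66 and Mif 129.

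Under AZD8330 the distance between control and Vhl cells was wider. Mif was at 160.3, 167.5 and 159.5 CPM in control libraries (162.4 ± 4.40) and at 1128, 1129 and 1145 CPM in Vhl libraries (1134 ± 9.49). The rise was 6.98-fold, a log2 change of 2.80 ± 0.03 (SE; adjusted p = 7.9e-15, edgeR). Fam162a was at 32.3, 33.9 and 33.6 CPM in control libraries (33.3 ± 0.876) and at 399.9, 425.2 and 373.6 CPM in Vhl libraries (399.6 ± 25.8). Its rise was 12.01-fold, a log2 change of 3.59 ± 0.05 (SE; adjusted p = 3.7e-14, edgeR). Both passed, against 16% of tested genes called higher, and in both the groups did not overlap, as for 22.3% of tested genes.

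**Figure D3:**
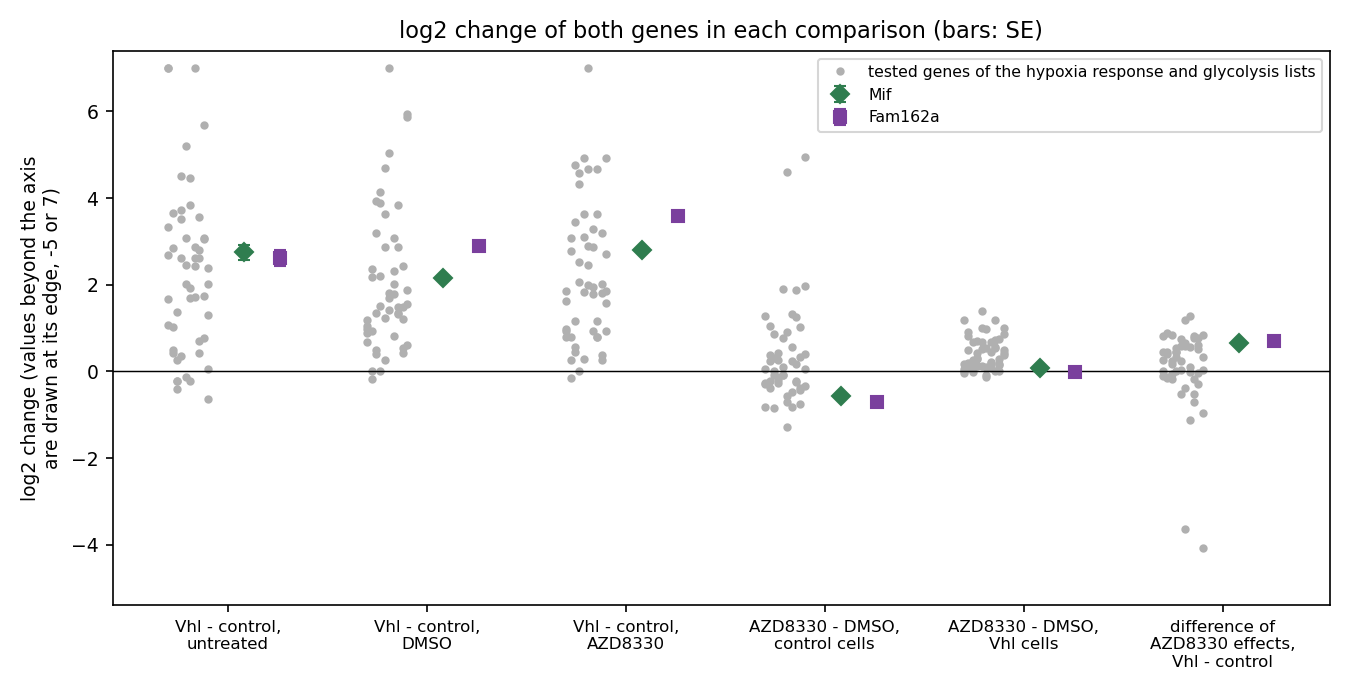
log2 change of Mif and Fam162a with its SE in the 6 comparisons (diamonds and squares), beside the tested genes of the hypoxia response and glycolysis lists (grey points). Both genes lie between 2.16 and 3.59 in the Vhl comparisons, below 0 for AZD8330 in control cells, and near 0 for AZD8330 in Vhl cells.

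Within each genotype, AZD8330 was compared with DMSO. In control cells AZD8330 lowered both genes, from 241.8 to 162.4 CPM for Mif and from 54.4 to 33.3 CPM for Fam162a, and no AZD8330 library reached the lowest DMSO library, as for 34.1% of tested genes. Mif fell by 0.57 ± 0.03 on the log2 scale (SE; adjusted p = 4.51e-09, edgeR) and Fam162a fell by 0.71 ± 0.05 (SE; adjusted p = 1.19e-07, edgeR). In this comparison 31.7% of tested genes were called lower and 60.8% were called in either direction.

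In Vhl cells the fall was not seen. Fam162a was at 403.7 ± 9.97 CPM in DMSO and 399.6 ± 25.8 CPM in AZD8330, the libraries overlapped, and the log2 change was −0.01 ± 0.04 (SE; adjusted p = 0.80, edgeR). Mif went from 1077 ± 33.8 to 1134 ± 9.49 CPM, a log2 change of 0.07 ± 0.03 (SE; adjusted p = 0.0528, edgeR). Its 3 AZD8330 libraries lay above the 3 DMSO libraries, as did those of 30% of tested genes. The Mif value sits at the threshold: DESeq2 gave an adjusted p of 0.0386, and leaving out Vhl DMSO library B gave a log2 change of 0.10 with an adjusted p of 0.0193 in edgeR. Of all tested genes, 51.4% were called in either direction and 25.8% were called higher.

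The difference between the drug effects in Vhl and control cells was tested directly. It was 0.65 ± 0.04 on the log2 scale for Mif (SE; adjusted p = 2.09e-06, edgeR) and 0.70 ± 0.07 for Fam162a (SE; adjusted p = 4.58e-05, edgeR). Such a difference, with the change higher in Vhl cells, was called for 7.81% of tested genes. Within the drug experiment, the order of levels was therefore Vhl AZD8330, Vhl DMSO, control DMSO and control AZD8330 for Mif, with the first 2 at the edge of the test. For Fam162a the 2 Vhl groups could not be ordered, and control DMSO lay above control AZD8330.

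The ratio of Mif to Fam162a separated control from Vhl libraries in the drug experiment. In DMSO, the control libraries held 4.37, 4.39 and 4.57 counts of Mif per count of Fam162a, against 2.65, 2.82 and 2.54 in Vhl libraries. In AZD8330 the ratios were 4.97, 4.94 and 4.75 in control and 2.82, 2.66 and 3.07 in Vhl libraries. The groups did not overlap in either treatment, and Fam162a had the larger fold change in both. The log2 ratio was lower in Vhl cells by 0.74 in DMSO and 0.78 in AZD8330 (exact two-sided permutation test, p = 0.1 for each, which is the smallest that 3 against 3 libraries allow). In untreated cells the ratio was 3.57, 3.12 and 3.05 in control and 3.16, 3.07 and 4.55 in Vhl libraries, so the groups overlapped, and Vhl C was high. The untreated log2 difference of 0.12 turned to −0.06 without Vhl C.

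**Figure D4:**
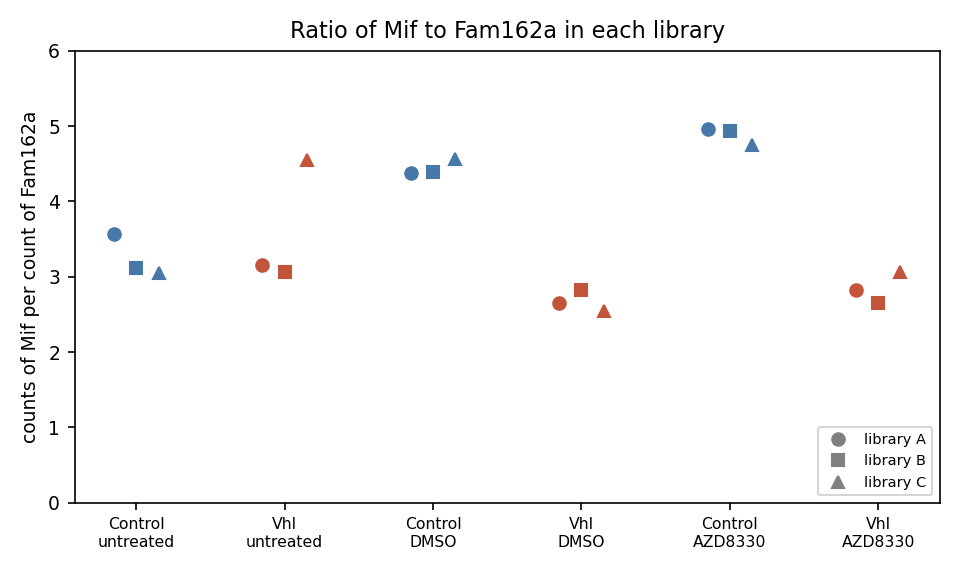
Counts of Mif per count of Fam162a in each library, by group (control in blue, Vhl in red, marker shape for the library letter, axis from 0). In DMSO and AZD8330 the control libraries lie between 4.37 and 4.97 and the Vhl libraries between 2.54 and 3.07, while the untreated groups overlap.

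Per length of the longest coding transcript (544 bases for Mif, 718 for Fam162a), Mif was the more abundant in every group. It reached 444.4 CPM per kilobase against 75.8 for Fam162a in control DMSO, and 1980 against 562.3 in Vhl DMSO. Between the 2 tables, which were normalized separately and not tested against each other, control cells in DMSO held 4.42 times the untreated level of Mif and 3.22 times that of Fam162a. The same ratio had a median of 1.02 over 12285 genes at 1 CPM or more in both control groups. It moved with transcript length, from 1.84 for 615 genes with a longest transcript under 1000 bases to 1.25 for those from there to 3000 bases and 0.900 for longer ones. The part of transcript length in the ratios of Mif and Fam162a was not tested.

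Most tested genes of the HIF response rose with the pair in the Vhl comparisons of the drug experiment. Of 31 tested hypoxia response genes other than the pair, 28 rose and 0 fell in Vhl cells in DMSO, with a median log2 change of 1.49. In AZD8330 28 rose and 0 fell, with a median of 1.81. Of 19 tested glycolysis genes, 16 rose and 0 fell in each treatment, with medians of 1.81 and 2.06. Of all tested genes, 13.8% rose and 18.5% fell in DMSO, and 16% rose and 14% fell in AZD8330. In untreated cells 0 of 32 hypoxia genes and 0 of 20 glycolysis genes passed in edgeR, though their medians were 1.73 and 2.71 and 22 and 15 had an unadjusted p under 0.05. Of all 13569 genes tested there, 1267 had an unadjusted p under 0.05. In these lists together DESeq2 called 30 higher and limma 2, and edgeR called 33 higher without Vhl A. Over all genes, the same fits called 246, 4 and 308 higher.

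The same lists were then compared under AZD8330. In control cells 11 of 31 hypoxia genes rose and 8 fell, and 3 of 19 glycolysis genes rose and 7 fell, where 29.1% of all tested genes were called higher and 31.7% lower, so the hypoxia counts lie near those of all genes. In Vhl cells, where Mif and Fam162a passed in neither direction, 21 of 31 hypoxia genes rose and 0 fell, with a median log2 change of 0.52, and 8 of 19 glycolysis genes rose and 1 fell, with a median of 0.25. Of all tested genes, 25.8% were called higher and 25.6% lower in that comparison. The difference between the drug effects was called higher for 10 and lower for 3 hypoxia genes, and higher for 7 and lower for 1 of the glycolysis genes, where 7.81% of all tested genes were called higher and 4.96% lower. Egln1 showed a like set of values to the pair: it fell by 0.76 ± 0.04 with AZD8330 in control cells (SE; adjusted p = 1.12e-09, edgeR) and its change in Vhl cells was 0.00 ± 0.03 (SE; adjusted p = 0.946, edgeR). Bnip3 rose in both, by a log2 change of 0.91 ± 0.06 in control cells and 0.54 ± 0.04 in Vhl cells (SE). Of 16 tested genes known to report MEK and ERK activity, 12 fell and 3 rose with AZD8330 in control cells, with a median of −2.07. In Vhl cells 10 fell and 3 rose, with a median of −1.44. The difference between the drug effects was called higher for 6 and lower for 0 of these 16.

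Of 9 genes of MIF signalling (its paralog, receptors and partners), 7 were tested, and in DMSO 2 rose and 3 fell in Vhl cells, where 13.8% of all tested genes rose and 18.5% fell. With so few genes, these counts say nothing about the list as a whole. In Vhl cells in DMSO, the chemokine receptor gene Cxcr4 rose by a log2 change of 0.77 ± 0.09, from 11.4 to 19.4 CPM, and Ddt, the paralog of Mif, rose by 0.28 ± 0.05, from 63.4 to 77.2 CPM. The coreceptor gene Cd44 fell by 0.75 ± 0.06, from 99.5 to 59.1 CPM, while Aifm1, which encodes apoptosis-inducing factor, fell by 0.43 ± 0.06 and Cops5, whose product binds MIF, fell by 0.24 ± 0.05. In AZD8330 0 of the 7 rose, and Cd44, Aifm1 and the receptor gene Ackr3 fell, the last by 0.79 ± 0.09, where 16% of all tested genes rose and 14% fell. Adjusted p-values for these calls came from the same edgeR fit. Cd74, the receptor that binds MIF, averaged 0 to 0.412 CPM in the 6 groups and Cxcr2 0.0901 to 0.264 CPM, both under the minimum for testing.

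Fam162a is known for its place in mitochondrial cell death, and of 16 tested genes of that list 3 rose and 2 fell in Vhl cells in DMSO, shares near the 13.8% and 18.5% of all tested genes. Vdac1, which encodes a channel of the outer mitochondrial membrane, rose from 630.0 to 863.1 CPM, a log2 change of 0.45 ± 0.03. Bcl2l11, which encodes the death-promoting protein BIM, rose by 0.74 ± 0.07, from 23.9 to 39.97 CPM. Cycs, the gene of cytochrome c, fell by 0.42 ± 0.08. In AZD8330 4 of the 16 rose and 3 fell, and Bcl2l11 was among those that fell, by 0.24 ± 0.06. The list's medians, −0.04 in DMSO and 0.09 in AZD8330, lay near those of all genes (−0.03 and 0.01).

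The neighbour that shares a start region with Fam162a was also higher in Vhl cells. By the GENCODE starts of both genes, Ccdc58 begins 90 bases from Fam162a and runs the other way. It was at 9.61, 10.8 and 10.05 CPM in untreated control libraries and 25.0, 19.8 and 16.8 CPM in untreated Vhl libraries, groups that did not overlap, with a log2 change of 1.02 ± 0.24 (SE; adjusted p = 0.235, edgeR). In DMSO it rose from 28.5 ± 1.95 to 39.8 ± 2.76 CPM, by 0.48 ± 0.09 (SE; adjusted p = 0.000859, edgeR), and in AZD8330 by 0.74 ± 0.09 (SE; adjusted p = 3.39e-05, edgeR). The same comparisons gave 2.89 and 3.59 for Fam162a. AZD8330 lowered Ccdc58 by 0.87 in control cells and by 0.60 in Vhl cells (adjusted p = 5.84e-05, edgeR), and the difference between these effects, 0.27 ± 0.12 (SE), did not pass (adjusted p = 0.198, edgeR).

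Of 10 genes within 100 kb of Fam162a, 4 were tested, and of 17 genes within 100 kb of Mif, 6. Kpna1 and Wdr5b did not pass in any Vhl comparison. Parp9 was at 1.79 ± 1.31 CPM in control and 5.79 ± 0.682 CPM in Vhl DMSO cells. The call of this rise was lost without Vhl DMSO library B or C (adjusted p = 0.0610 and 0.0548, edgeR). It was also lost in a fit of only the 2 groups compared (adjusted p = 0.0533, edgeR). In AZD8330 Parp9 was at 1.31 to 3.88 CPM in control and 7.15 to 9.06 CPM in Vhl libraries. That rise lost its call without control AZD8330 A or B or Vhl AZD8330 A or C (adjusted p = 0.0521 to 0.0856, edgeR). Near Mif, Gstt3, a glutathione transferase gene, rose from 2.93 ± 1.11 to 11.7 ± 1.98 CPM in DMSO, a log2 change of 2.01 ± 0.26 (SE; adjusted p = 6.65e-05, edgeR). In AZD8330 its rise of 0.75 ± 0.24 (SE; adjusted p = 0.0329, edgeR) lost its call without any 1 of the 6 AZD8330 libraries (adjusted p = 0.0598 to 0.136, edgeR). Ddt rose in DMSO, as given above. Derl3, at 1.20 and 2.34 CPM in control and Vhl DMSO cells, rose by 0.95 ± 0.28 (SE, adjusted p = 0.0215, edgeR). This call was lost without control DMSO C or Vhl DMSO A (adjusted p = 0.0719 and 0.0867, edgeR). It was also lost with no filter and in a fit of only the 2 groups compared (adjusted p = 0.122 and 0.0508, edgeR). Smarcb1 fell by 0.14 ± 0.03, from 176.0 to 160.1 CPM (SE, adjusted p = 0.00818, edgeR). This call was lost with library totals and without control AZD8330 B or C or Vhl AZD8330 A, B or C (adjusted p = 0.0505 to 0.112, edgeR). It was also lost in a fit of only the 2 groups compared (adjusted p = 0.0559, edgeR). Cabin1, at 209.6 and 201.7 CPM, and Gstt1, at 1.06 and 1.28 CPM, did not pass in DMSO.

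**Figure D5:**
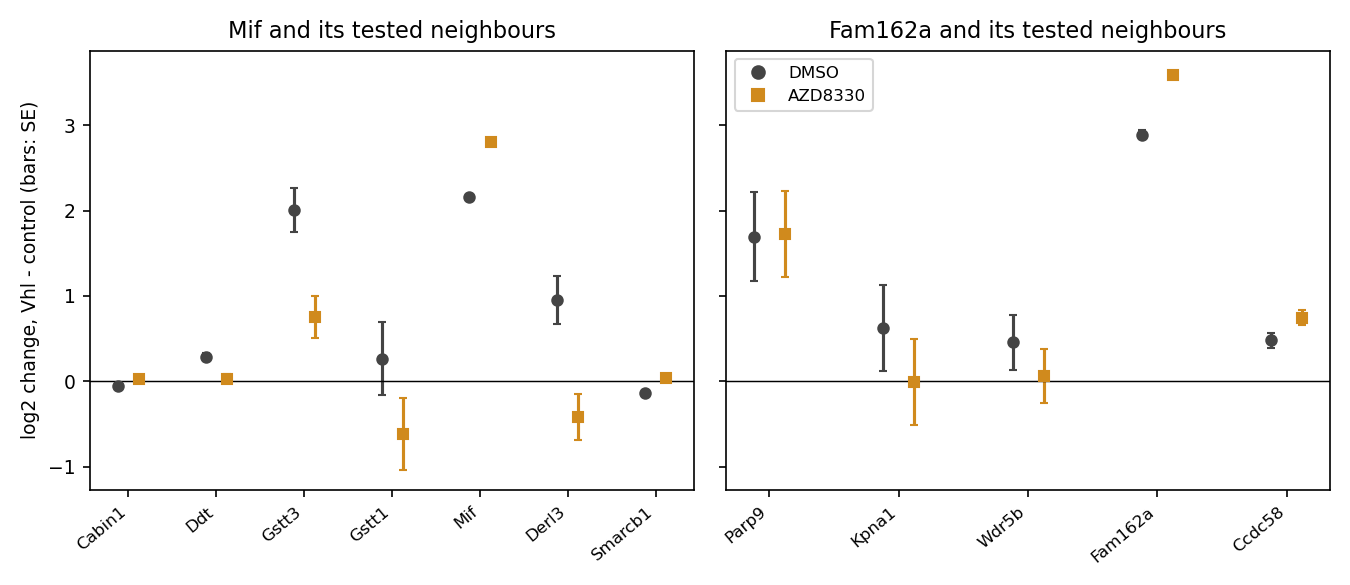
log2 change between Vhl and control cells with its SE, in DMSO (circles) and AZD8330 (squares), for Mif and its 6 tested neighbours and Fam162a and its 4, ordered along the chromosome. Mif (2.16 and 2.80) and Fam162a (2.89 and 3.59) have higher point estimates than the tested neighbours in both treatments; in DMSO Gstt3 (2.01 ± 0.26) lies close to Mif, and that difference was not tested.

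Some genes followed the pair over the 18 libraries, by Pearson's r of log2(CPM + 1) centred on the mean of each table, among 12910 genes tested in both. The closest to Mif were Prelid1, which encodes a mitochondrial lipid-transfer protein (r = 0.987), Tpi1 (0.986), Fam162a (0.985), Pgam1, the gene of a phosphoglycerate mutase (0.984), and Hilpda, a hypoxia-induced lipid droplet gene (0.980). The closest to Fam162a were Higd1a (0.988), Mif (0.985), Tchh (0.978), Hilpda (0.977) and Cnnm1 (0.975). The libraries share their 6 groups, so these values mostly rank how the group means lie. Prelid1 went from 265.0 to 493.9 CPM between control and Vhl cells in DMSO, a log2 rise of 0.90 ± 0.04 (SE; adjusted p = 3.51e-09, edgeR). Higd1a went from 81.2 to 591.7 CPM, a rise of 2.87 ± 0.05, and it also rose with AZD8330 in Vhl cells, by 0.54 ± 0.05 (SE; adjusted p = 4.38e-07, edgeR).

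The counts of Mif carry a limit that those of Fam162a carry less. Of the 742 words of 31 bases in the annotated transcripts of Mif, 60.5% also occur in transcripts of 8 other genes, mostly processed copies, whereas 15.7% of the 878 words of Fam162a do, all shared with Wdr5b, which overlaps its 3′ end on the other strand. Mif counts were whole numbers, within 0.001, in 0 of 18 libraries and Fam162a counts in 18 of 18, so reads of Mif were divided among genes. The largest of the sharing genes, C230062I16Rik, held 1876 counts summed over all 18 libraries. Mif alone held 789 counts in the single library with the fewest and 17216 in that with the most. The sum over libraries and these values of single libraries are unlike measures. With all 8 added to Mif, its log2 change was 2.63 untreated, 2.10 in DMSO and 2.74 in AZD8330.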

How the data were processed

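RNA from 18 libraries of cultured mouse OPCs was measured by RNA sequencing. Per the submitters' processing notes, Salmon 0.14.1 and the build mm10 were used. The step from transcripts to genes, the library kit and its strandedness were not given in the sources used here. Although named as TPM, the 2 tables the authors deposited hold estimated counts: column totals differ between libraries, and 59.9% and 60.6% of the values above 0 are whole within 0.001. A mean column for control and another for Vhl cells, made by the authors, entered no comparison.

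Counts were rounded. Genes were kept where the mean over a table reached 1 CPM (13569 and 13460), library sizes were scaled with TMM, and edgeR's quasi-likelihood test (edgeR 4.0.16, R 4.3.3) was run on each table separately, the 4 groups of the drug experiment in 1 fit. The Benjamini-Hochberg adjustment ran over every gene tested in a comparison, with a threshold of 0.05; "rose", "fell" and "called" mean an adjusted p under it. Mif, Fam162a and the gene lists (textbook knowledge) were chosen with earlier results of these data known, so their tests in the drug experiment are not independent of that choice either. Named genes were both members, the MIF list, fixed comparison genes, up to 4 cell death genes with the smallest p in DMSO, neighbours within 100 kb, the 5 genes most like each member, and the extremes of the Vhl A share; Narf, Lox and Hk1 enter by that share. Sox10, Cspg4, Olig1, Bcl2l11 in AZD8330 and C230062I16Rik were singled out after their values had been seen.

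Alternatives were DESeq2 1.42.0, limma 3.58.1 on log2(CPM + 1) and on log2(CPM + 0.1), library totals in place of TMM, no filter, fits of only the groups compared, a replicate block and leaving out libraries. Summing Mif with the genes that share its sequence was added after seeing the data. Scripts were tested on simulated data. Shared words were counted over all GENCODE M21 transcripts on both strands. The promoters came from RefSeq (GRCm38.p6) and both genes were matched. No pair of libraries had identical values. Figures were drawn with matplotlib 3.10.9.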

Additional observations from a re-analysis of the deposited data

Results flagged for a closer look

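For both genes the effect of AZD8330 differed between Vhl and control cells by a test of the difference itself. For Mif the difference was 0.65 on the log2 scale (adjusted p = 2.09e-06, edgeR), the drug effect being −0.57 in control and 0.07 in Vhl cells. For Fam162a it was 0.70 (adjusted p = 4.58e-05, edgeR), with effects of −0.71 and −0.01. Over the 12 fits that leave out 1 library each, the difference ranged from 0.56 to 0.68 for Mif and from 0.57 to 0.72 for Fam162a.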

How the results depend on the processing

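Both genes kept the direction of their Vhl effects under every alternative run: in untreated cells the log2 change ranged from 2.63 to 2.84 for Mif and from 2.54 to 2.69 for Fam162a. In DMSO and AZD8330, and for AZD8330 in control cells and the difference of drug effects, every alternative run kept the call. For AZD8330 in Vhl cells the calls were less firm: for Mif DESeq2 gave 0.07, past the threshold, and fits without 1 library gave 0.02 to 0.10, with the call reached only without Vhl DMSO library B. For Fam162a the same fits gave −0.11 to 0. The count of genes called in untreated cells was 2, against 355 with DESeq2, 4 with limma at either pseudocount, 143 with no filter, 439 without Vhl A and 606 without both A libraries; it was 0 without control A, B or C or Vhl B. List genes called higher there numbered 29 with no filter and 32 without both A libraries, where 112 and 395 of all genes were called higher. Genes with a higher difference of drug effects numbered 1051, against 681 with library totals and 465 to 579 without control AZD8330 B or C or Vhl AZD8330 A, B or C. The share of higher genes among the calls was 42.6% in DMSO and 61.2% for the difference, but 56.8% and 43.8% with library totals; in AZD8330 it was 53.3%, but 43.6% with DESeq2. No scaling moved the median of all genes by more than 0.1. A replicate block by letter gave untreated log2 changes of 2.74 for Mif and 2.61 for Fam162a and 0 untreated calls; letters are not said to pair libraries, and same-letter correlations over all tested genes were −0.081 to 0.053, too low to treat them as pairs, although both untreated A libraries departed from B and C in single genes such as Sox10. The untreated spread (common dispersion 0.144, against 0.0161 in the drug experiment) limits the untreated values. Causes of these changes were not tested.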

Other observations

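The authors' deposited table for untreated cells has a mean column for Vhl cells that does not hold the mean of the 3 Vhl libraries. In 100% of 28772 rows with counts it equals the mean of control B, control C and Vhl A, within 0.001; the mean of Vhl A, B and C matched it in 8.64%. These are 3 columns next to each other, starting 1 column after those of the control mean. The control column equals the mean of the 3 control libraries in 100% of rows. Read from the authors' deposited table, Mif would be 3.45-fold and Fam162a 3.53-fold higher in Vhl cells, against ratios of 7.43 and 6.85 from the 3 Vhl libraries. For Vegfa the authors' deposited table gives 3.22-fold, against 51.8 from the libraries. These ratios are of unscaled counts. The names of the single columns were taken as deposited. Control B and control C enter both mean columns, so no renaming of single columns would make both of them means of separate groups. The values given for Vhl A rest on the names as deposited. Mif and Fam162a were higher in each of the 3 columns named for Vhl than in each of the 3 named for control. In the authors' mean column for Vhl cells, the pair and Vegfa appear to respond alike, which Vhl libraries B and C do not show.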
